A study of Homo sapiens with 24 samples.

Results

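MYC is the protein-coding neighbour of the non-coding RNAs of chromosome region 8q24.21 that were targeted in this study, and its transcript was 1 of the 189 endogenous transcripts on the nCounter cell cycle panel. The single probe row named MYC, listed under the RefSeq transcript NM_002467.3 on chromosome 8, was read in all 24 libraries. nCounter counts single RNA molecules by hybridising a coloured barcode probe to each, without amplification. The files name no genome build, so no gene coordinates are given.

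The libraries form 8 groups of 3. In HCT116, a line from a colorectal cancer, 6 groups received 50 nM of a control siRNA (siCTRL) or of an siRNA against CARLo-1 v3, CARLo-3, CARLo-4, CARLo-5 or CARLo-7 v2. In PC3, a line from a prostate cancer, the 2 groups received 100 nM of control siRNA or of siRNA against CARLo-1 v2&4. CARLo stands for cancer-associated region long non-coding RNA, and v2, v3 and v4 are transcript variants as the labels give them. All groups were transfected with the same lipid reagent and total RNA was taken. No probe on the panel measures a CARLo RNA, so loss of the targets could not be checked in these files. The labels do not say whether replicates were separate cultures. A p-value thus rests on the spread between libraries within groups, pooled over all groups of a fit, which may be technical.

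MYC encodes a transcription factor that pairs with its partner MAX and binds the E-box, the DNA letters CACGTG. It drives genes of cell growth, replication and entry into S phase, and it holds down cell cycle inhibitor genes. The gene is often amplified or over-expressed in cancer, and the stretch of 8q24 beside it carries inherited risk variants for colorectal and prostate cancer and enhancers that contact the MYC promoter. Its mRNA and protein are both short-lived.

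Raw MYC counts in the 21 libraries with raw counts were between 667 and 3047, which gives a counting error of 1.81% to 3.87%, and MYC lay 84.7 to 291 times above the background of the negative probes in all 24 libraries. Endogenous totals ran from 55893 to 236508 counts. The 3 libraries of PC3 siCARLo-1 v2&4 hold values already scaled on the positive control probes, not raw counts. Among replicates, siCARLo-1 v3 replicate 3 stood apart over all genes (chi-square 10107 and 8925 against replicates 1 and 2, which gave 460 between them). HCT116 control replicates 1 and 2 were the closest pair with raw counts (chi-square 209 on 176 degrees of freedom, p = 0.047), and they were kept as separate samples. CDH1 (E-cadherin) was above background in every library. Scaled over all 24 libraries, it stood at 130 to 161 in the HCT116 controls and at 607 to 666 in those of PC3. TWIST1, a mesenchymal transcription factor, was below background in all 18 HCT116 libraries and above it in all 3 PC3 controls, at 18.6 to 27.3. After siCARLo-1 v2&4 it was above background in 2 of 3 libraries. Both markers were thus higher in the PC3 controls, and no other marker of the lines is on the panel.

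In HCT116, MYC mRNA was highest after siCARLo-1 v3 and lowest after siCARLo-4. Counts were scaled to the bulk of the panel (TMM, trimmed mean of M-values, over all endogenous genes of the line), and these are called normalised counts below. With the control siRNA MYC stood at 1518, 1544 and 1385 normalised counts in the 3 libraries. After siCARLo-1 v3 the libraries held 2486, 2579 and 2540. After siCARLo-3 they held 1347, 1481 and 1443. The siCARLo-1 v3 libraries were thus all well above the controls, while those of siCARLo-3 overlapped them. After siCARLo-4 MYC was at 1069, 1143 and 1074 normalised counts, all below every control. After siCARLo-5 the values were 1790, 1724 and 1648. After siCARLo-7 v2 they were 1750, 1713 and 1663. The libraries of the last 2 groups overlapped one another, and all 6 lay above the 3 controls.

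**Figure D1:**
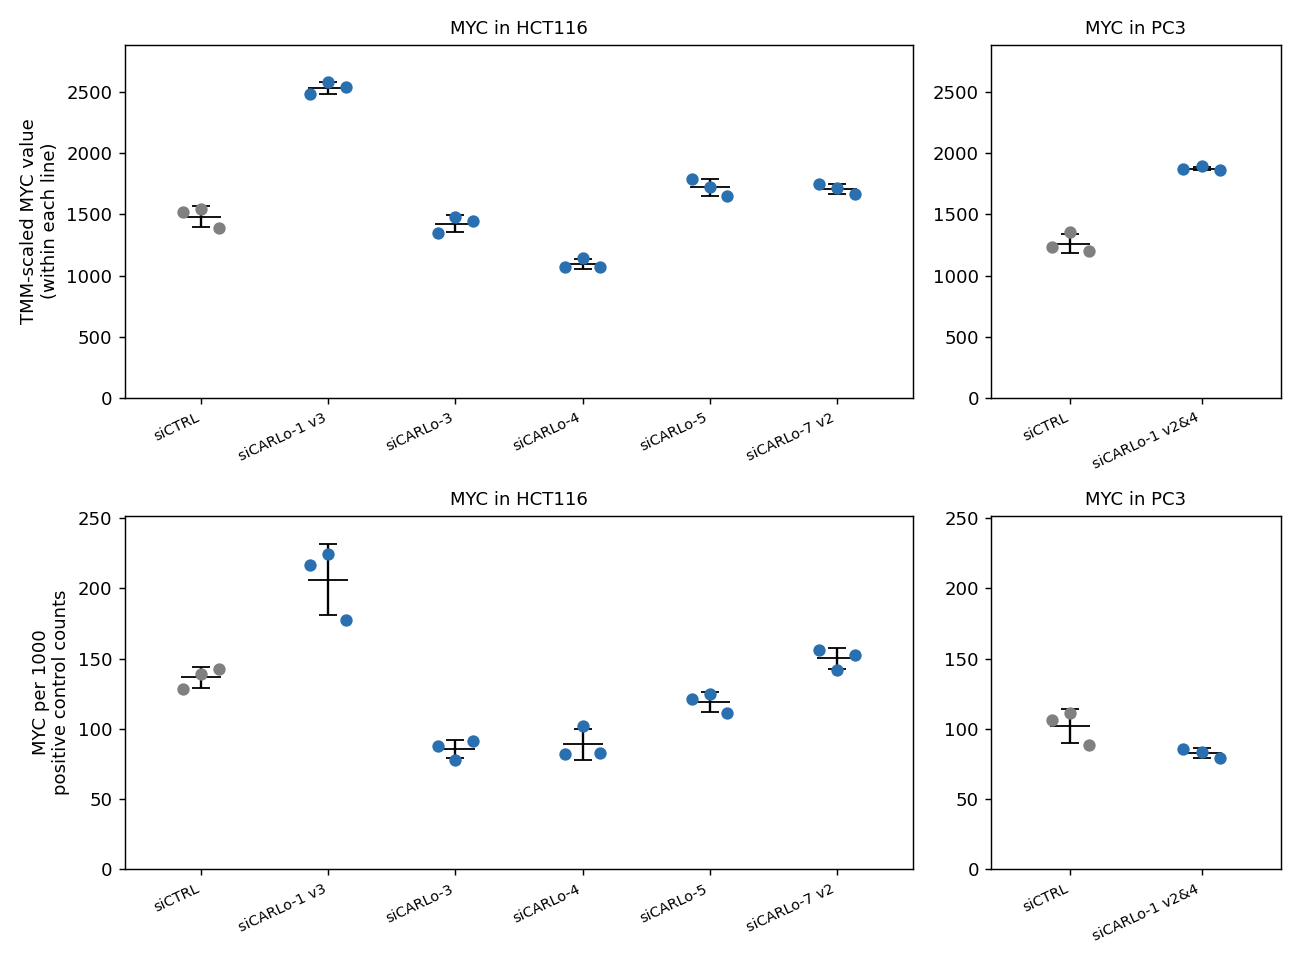
MYC in each of the 24 libraries (points), with the group mean (bar) and SD (whiskers), n = 3 per group, controls in grey. The upper panels give TMM-scaled values within each line and the lower panels MYC per 1000 positive control counts. HCT116 siCARLo-1 v3 is the highest group of its line on both scales, while the PC3 siCARLo-1 v2&4 libraries lie above their controls in the upper panel and below them in the lower.

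Ordered by mean, normalised MYC in HCT116 ran from 1095 ± 41.2 (SD, n = 3) after siCARLo-4 through 1424 ± 69.2 after siCARLo-3, 1482 ± 84.9 in the control, 1709 ± 43.4 after siCARLo-7 v2 and 1721 ± 71.0 after siCARLo-5 to 2535 ± 46.9 after siCARLo-1 v3. Among neighbours in that order, siCARLo-3 and the control did not differ beyond their spread, and neither did siCARLo-7 v2 and siCARLo-5. As a share of all endogenous counts MYC made up 1.27% ± 0.060 in the control, 2.24% ± 0.21 after siCARLo-1 v3 and 0.920% ± 0.035 after siCARLo-4.

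MYC rose after siCARLo-1 v3 and fell after siCARLo-4 relative to the control siRNA. The rise was 0.77 ± 0.058 on the log2 scale (SE, 1.71-fold, 95% interval 0.65 to 0.90, edgeR quasi-likelihood test with Benjamini-Hochberg adjustment over 178 genes, adjusted p = 8.6e-09). By the same test, 41.0% of the 178 genes were called in that comparison (adjusted p under 0.05), and MYC had the 16th largest change. The fall after siCARLo-4 was -0.44 ± 0.059 (adjusted p = 2.8e-05), where 35.4% of the genes were called and MYC ranked 50th. Both calls were kept with libraries scaled on the positive control probes, on 6 reference genes or on the endogenous total, with changes of 0.60 to 0.91 for siCARLo-1 v3 and -0.62 to -0.43 for siCARLo-4. In the authors' series-wide table, described below, these groups and the control were scaled to different levels. There the siCARLo-4 difference was -0.18 (limma adjusted p = 0.36) and that of siCARLo-1 v3 was 1.03.

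After siCARLo-5 and siCARLo-7 v2 MYC was slightly above the control, by 0.21 ± 0.058 (edgeR adjusted p = 0.0046, rank 126 of 178) and 0.20 ± 0.058 (adjusted p = 0.011, rank 111). The panel was called at 55.1% and 37.1% in these comparisons, so a call of this size was common. The siCARLo-5 difference turned to -0.20 (adjusted p = 0.19) when libraries were scaled on the sum of the positive controls, and it was 0.06 (adjusted p = 0.64) on the reference genes and 0.13 (adjusted p = 0.18) on the endogenous total. For siCARLo-7 v2 these scalings gave 0.14 (adjusted p = 0.43), 0.27 (adjusted p = 0.058) and 0.27 (adjusted p = 0.012), and without control replicate 3 the change was 0.16 (adjusted p = 0.061).

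After siCARLo-3 MYC differed from the control by -0.06 ± 0.060 (95% interval -0.18 to 0.07, edgeR adjusted p = 0.43), while 52.2% of the genes were called. That interval leaves out a change as large as that of siCARLo-1 v3 or siCARLo-4, on this scale. Scaled on the positive controls, however, MYC was lower by -0.67 (adjusted p = 4.7e-05) and with it the median of all 178 genes, which stood at -0.61. The siCARLo-3 libraries also held the fewest endogenous counts, 70907 on average against 115408 in the control.

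The choice of scale moved MYC together with the panel. Positive control scaling put the median of all tested genes at -0.16 for siCARLo-1 v3, -0.18 for siCARLo-4, -0.36 for siCARLo-5, -0.05 for siCARLo-7 v2 and -0.77 for PC3 siCARLo-1 v2&4, whereas TMM put it within 0.08 of 0. MYC measured against that median moved little, since a scaling shifts all genes of a library by one factor. The distance of MYC from the median was 0.76 for siCARLo-1 v3, -0.06 for siCARLo-3, -0.43 for siCARLo-4, 0.17 for siCARLo-5, 0.18 for siCARLo-7 v2 and 0.50 for PC3 with TMM, and 0.76, -0.06, -0.44, 0.17, 0.19 and 0.48 with the positive controls. The calls over the panel were split 30 higher and 43 lower for siCARLo-1 v3, 45 and 48 for siCARLo-3, 32 and 31 for siCARLo-4, 45 and 53 for siCARLo-5, and 37 and 29 for siCARLo-7 v2. Positive control scaling turned these into 10 and 47, 11 and 118, 13 and 40, 8 and 82, and 23 and 25, and the reference genes into 34 and 17, 27 and 59, 25 and 17, 28 and 61, and 31 and 13.

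**Figure D2:**
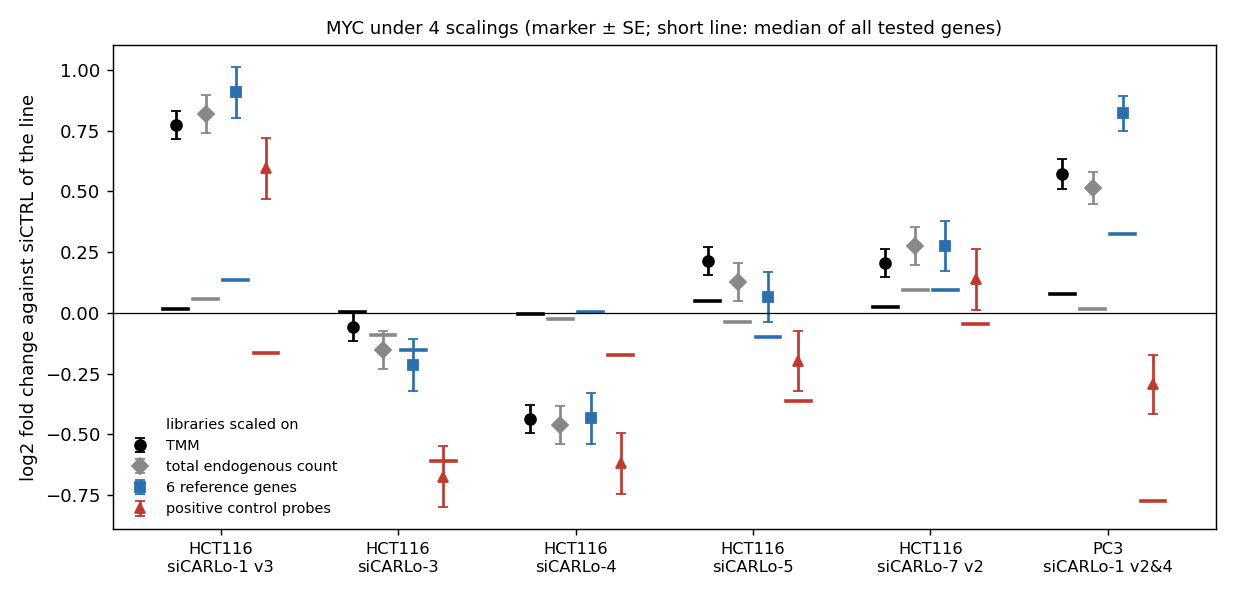
Log2 fold change of MYC against the control siRNA of its line (markers, with SE) under 4 ways of scaling the libraries, with the median of all tested genes under the same scaling as a short line of the same colour. MYC lies above the median for siCARLo-1 v3 and PC3 siCARLo-1 v2&4 and below it for siCARLo-4 under each scaling shown, while its sign against 0 changes with the scaling for siCARLo-5 and for PC3.

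The positive controls themselves also differed between the groups. They are synthetic RNAs added at fixed amounts, and the ratio of the strongest to the next was 2.01 on average in the HCT116 control libraries and 2.19 to 2.90 in the siCARLo groups of that line, a log2 shift of 0.13 to 0.53. In PC3 it went the other way, from 2.35 in the controls to 1.97 after siCARLo-1 v2&4, a log2 shift of -0.26. The part of these shifts in the MYC differences of siCARLo-5, siCARLo-7 v2 and PC3 siCARLo-1 v2&4 was not tested. The authors' series-wide table holds values scaled on the positive controls, whose sums take 4 different levels there. The labels and headers do not say what these levels mark. Each control lies at another level than the siCARLo groups of its line, so in that table the level and the siRNA cannot be told apart. In that table siCARLo-5 and siCARLo-7 v2 stood 0.64 and 0.98 above the control (limma adjusted p = 7.0e-04 and 5.0e-06), at a positive control sum of 16033 against 8964 to 8967.

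The groups siCARLo-1 v3, siCARLo-4 and siCARLo-3 share one level of that scaling. MYC was lower after siCARLo-4 than after siCARLo-1 v3 by -1.21 ± 0.059 on the log2 scale (edgeR adjusted p = 1.7e-11), the 4th largest change and the smallest p-value of the 178 genes, of which 45.5% were called. It was lower after siCARLo-3 than after siCARLo-1 v3 by -0.83 ± 0.059 (adjusted p = 3.5e-09, 55.1% called). Both differences were called under all scalings tried, at -1.34 to -1.21 and at -1.27 to -0.83. Between siCARLo-4 and siCARLo-3 the difference was -0.38 ± 0.060 (adjusted p = 4.2e-05, 43.8% called), but on the sum of the positive controls it was 0.06 (adjusted p = 0.72) and on the reference genes -0.22 (adjusted p = 0.095).

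The groups siCARLo-5 and siCARLo-7 v2 share another level, also that of the PC3 controls, and their MYC did not differ beyond its spread on the TMM scale. The difference was -0.01 ± 0.058 (95% interval -0.13 to 0.11, edgeR adjusted p = 0.88), the smallest of the 178 genes, in a comparison where 52.2% were called. With the sum of the positive controls it became 0.34 (adjusted p = 0.022), with siCARLo-7 v2 higher, and the median of all genes moved from 0.10 to 0.45.

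Between these levels, MYC on the TMM scale was also higher after siCARLo-1 v3 than after siCARLo-5 and siCARLo-7 v2, which were lower by -0.56 ± 0.058 (edgeR adjusted p = 3.1e-07, 52.8% called) and -0.57 ± 0.058 (adjusted p = 4.6e-07, 46.6% called). For siCARLo-7 v2 the difference was -0.38 with the geometric mean of the positive controls (adjusted p = 0.044) and -0.06 in the authors' series-wide table (limma adjusted p = 0.70). For siCARLo-5 it was -0.84 with the reference genes, and smaller in size in the series-wide table. There MYC lay -0.57 from the median of all genes, and that median was at 0.18. Against siCARLo-3, MYC was higher by 0.27 ± 0.059 after siCARLo-5 (adjusted p = 8.2e-04, 52.2% called) and by 0.26 ± 0.060 after siCARLo-7 v2 (adjusted p = 0.0014, 54.5% called). These 2 values became 0.48 and 0.81 with the sum of the positive controls, 0.28 and 0.49 with the reference genes, and 0.87 and 1.20 in the series-wide table. Against siCARLo-4 it was higher by 0.65 ± 0.058 (adjusted p = 9.2e-08, 40.4% called) and 0.64 ± 0.059 (adjusted p = 1.7e-07, 46.1% called), and the siCARLo-5 value was 0.42 with the sum of the positive controls and the siCARLo-7 v2 value 1.15 in the series-wide table. The F test for any difference among the 5 siCARLo groups gave F = 117 for MYC (edgeR adjusted p = 6.7e-11), the 5th smallest p of 178, in a test that called 86.5% of the genes.

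In PC3 the picture turned on the scale. MYC stood at 1230, 1354 and 1202 normalised values with the control siRNA. It stood at 1868, 1893 and 1865 after siCARLo-1 v2&4. All 3 treated libraries thus lay above all controls, with means of 1262 ± 80.6 and 1875 ± 15.1 (SD, n = 3). The change was 0.57 ± 0.062 (limma, fitted to TMM-scaled values on a log2 scale with a pseudocount of 1, adjusted p = 1.8e-04, 95% interval 0.42 to 0.72), the 88th largest of 179 genes, of which 76.0% were called. MYC was thus near the middle of a panel in which most genes moved.

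Measured against the positive controls, MYC in PC3 was instead lower after siCARLo-1 v2&4. It stood at 106, 111 and 88.4 per 1000 positive control counts in the controls and at 85.9, 83.6 and 78.9 in the treated libraries, again without overlap. The change was -0.29 with the sum of the positive controls (limma adjusted p = 0.043) and -0.37 with their geometric mean (adjusted p = 0.056), an alternative added after the data had been seen. The calls were 72 higher and 64 lower with TMM, 11 and 131 with the positive controls, and 92 and 43 with the reference genes, on which MYC was at 0.82. Endogenous values of the treated group summed to 73568 to 82152 in scaled units at a positive control sum of 13061. Fewer cells, less RNA per cell and less RNA loaded cannot be told apart here, and each fold on the TMM scale is relative to the rest of the panel.

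Between the lines, MYC with the control siRNA was lower in PC3 than in HCT116. On a common TMM scale of all 24 libraries the controls averaged 1146 ± 63.1 in PC3 and 1548 ± 88.6 in HCT116, a difference of -0.43 ± 0.060 (limma adjusted p = 3.7e-06, 68.5% of 184 genes called). On the same scale PC3 siCARLo-1 v2&4 averaged 1593 ± 22.2, next to the HCT116 control. Line and dose differ together in this comparison, as does the level of the authors' scaling. In the authors' series-wide table the difference has the opposite sign, 0.41 (limma adjusted p = 0.0044). That value includes the difference in level, with positive control sums of 8964 to 8967 for the HCT116 controls and 16033 for those of PC3. Per 1000 positive control counts, which leaves these levels out, MYC averaged 102 ± 12.1 in the PC3 controls and 137 ± 7.44 in those of HCT116.

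Both siRNAs against CARLo-1 were followed by higher MYC on the TMM scale, more so in HCT116. In the fit of all 24 libraries the changes were 0.78 ± 0.060 for v3 in HCT116 and 0.48 ± 0.060 for v2&4 in PC3, and their difference was 0.30 ± 0.085 (limma adjusted p = 0.0059, 55.4% of genes called). The difference was 0.08 (adjusted p = 0.68) on the reference genes, 0.88 on the sum of the positive controls, and 0.20 (adjusted p = 0.14) without HCT116 control replicate 2. The targeted variants and the doses also differ between the lines.

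Genes with the pattern of MYC over the 18 HCT116 libraries were then ranked, by the root mean square difference of log2 values after each gene was centred on its own mean. Of 155 genes with a mean of at least 50 normalised counts, SMAD3 was nearest at 0.23, against a median of 0.51. SMAD4 (0.30), ANAPC7, HDAC6 and POLR1C (0.32 each) came next. SMAD3 and SMAD4 encode transducers of TGF-beta signalling, ANAPC7 a subunit of the anaphase-promoting complex, HDAC6 a deacetylase of tubulin and POLR1C a subunit of RNA polymerases I and III. The SD of MYC itself was 0.38, so genes that barely varied also score well on this measure. Pearson's r with MYC over the 18 libraries was 0.79 for SMAD3 and 0.47 to 0.56 for the other 4, over points that share groups and one scaling. Within groups, the deviations of SMAD3 from the group means ran against those of MYC (r = -0.51), so the likeness lies in the group means.

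The genes nearest to MYC and to its sign-turned pattern were chosen by their values in these same libraries. Their changes are therefore given here without a test. SMAD3 kept the order of MYC at the ends but in a narrower range. It averaged 512 ± 48.8 normalised counts in the control, 667 ± 96.0 after siCARLo-1 v3 and 431 ± 36.2 after siCARLo-4. Its log2 changes from the control were 0.38 ± 0.11 (SE) after siCARLo-1 v3 and -0.25 ± 0.11 after siCARLo-4. SMAD4 stood at -0.53 ± 0.096 after siCARLo-4 but at 0.03 after siCARLo-1 v3, and at -0.29 ± 0.096 after siCARLo-5, where MYC was slightly higher. HDAC6 and POLR1C were higher after siCARLo-1 v3, by 0.39 ± 0.11 and 0.45 ± 0.075. POLR1C was also higher after siCARLo-4 (0.29 ± 0.074), where MYC was lowest. HDAC6 was lower after siCARLo-7 v2 (-0.34 ± 0.11), where MYC was slightly higher.

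PLK1, the polo-like kinase of mitotic entry, was nearest to the sign-turned pattern of MYC at 0.21, ahead of CCNB1 (0.24) and CCNA2 (0.27), which encode cyclins B1 and A2. PLK1 averaged 581 ± 26.1 normalised counts in the control, 293 ± 94.3 after siCARLo-1 v3, 437 ± 4.35 after siCARLo-7 v2 and 704 ± 27.0 after siCARLo-4. Its log2 changes from the control were -1.00 ± 0.14 (SE) after siCARLo-1 v3, -0.41 ± 0.14 after siCARLo-7 v2 and 0.28 ± 0.13 after siCARLo-4. CCNB1 was lower after siCARLo-1 v3 and siCARLo-7 v2, by -0.73 ± 0.12 and -0.44 ± 0.12. CCNA2 was lower after siCARLo-1 v3 (-1.22 ± 0.14) but also after siCARLo-3 (-0.48 ± 0.14), where MYC was level with the control. After siCARLo-4 CCNA2 stood at -0.11 ± 0.14. Within siCARLo-1 v3, PLK1, CCNB1 and CCNA2 were lowest in replicate 3, while normalised MYC in that library lay between the other 2. Per 1000 positive control counts MYC was lower there, at 178 against 217 and 225.

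**Figure D3:**
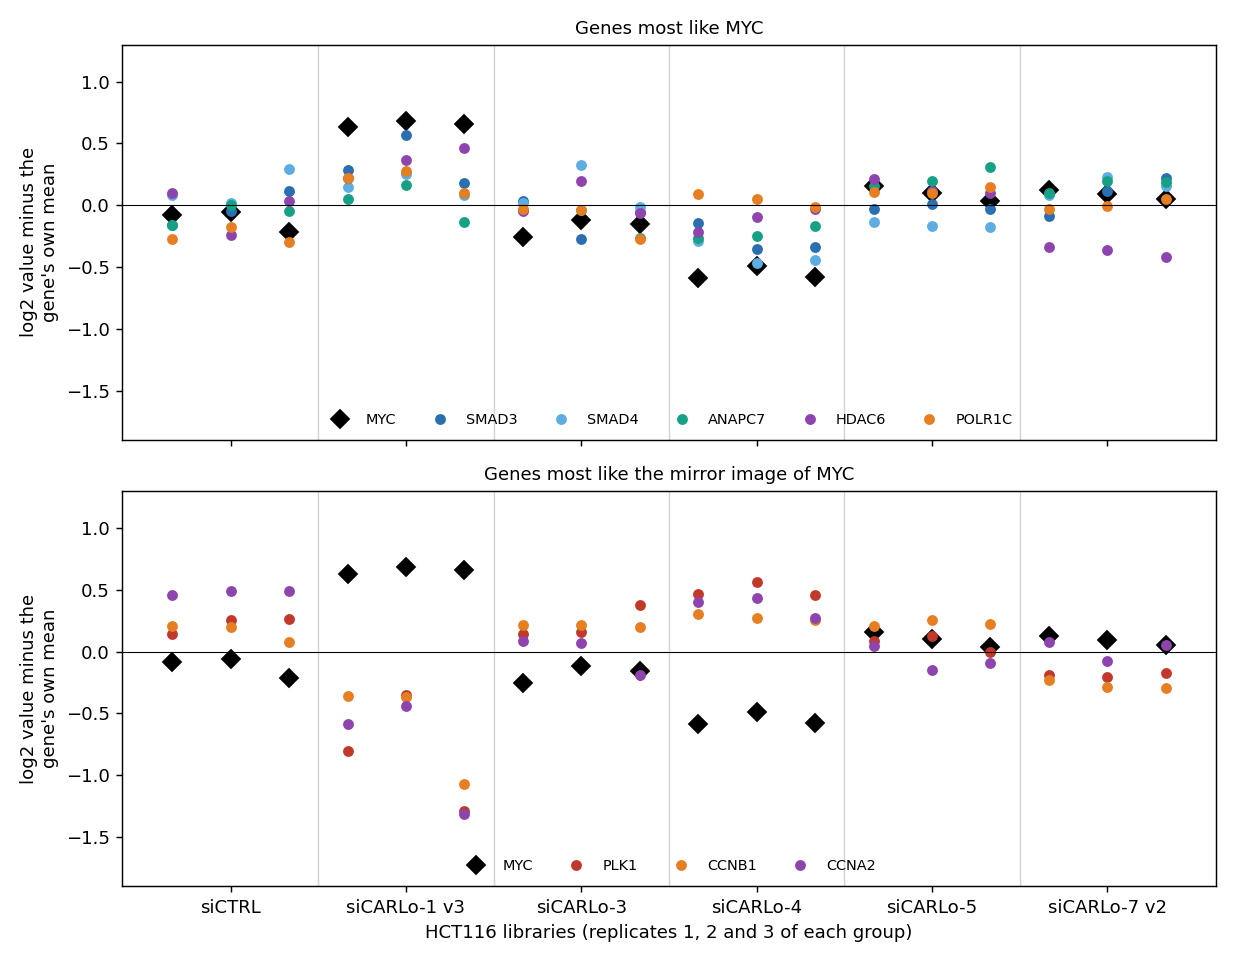
Log2 values, each gene centred on its own mean over the 18 HCT116 libraries, for MYC (black diamonds) and the 5 genes nearest to it (upper panel) or the 3 nearest to its mirror image (lower panel), with 3 libraries per group side by side. MYC is highest after siCARLo-1 v3 and lowest after siCARLo-4, where PLK1, CCNB1 and CCNA2 are low and high, and the low replicate 3 of siCARLo-1 v3 in these 3 genes has no counterpart in MYC on this scale.

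The E-box is shown for the genes of these patterns that carry it, because MYC protein binds it. The letters CACGTG, which read the same on both strands, were searched in RefSeq windows (GRCh38.p14) from 250 bases before to 50 after each start, and a gene was counted if any of its windows held them. That was so for 2396 of 27305 genes (8.77%), for 27 of the 158 panel genes in the table (17.1%) and for 3 of the 8 genes above. The windows below carry the E-box in capitals with 20 bases on each side and are written along the strand of the gene. The first lies at chr15:67065409-67065454 (plus strand) in one of 5 SMAD3 windows, the second at chr16:23678671-23678716 (plus) and the third at chr5:69166934-69166979 (plus). The last, at chr12:57752386-57752431 (minus), is one of 3 sites of CDK4, a textbook MYC target of the panel.
SMAD3: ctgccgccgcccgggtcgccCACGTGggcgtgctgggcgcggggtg
PLK1: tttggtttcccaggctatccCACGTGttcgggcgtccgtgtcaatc
CCNB1: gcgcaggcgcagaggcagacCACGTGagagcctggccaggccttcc
CDK4: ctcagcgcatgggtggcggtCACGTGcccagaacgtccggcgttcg
A match in such a window shows no binding, and the first 3 genes were chosen for their pattern.

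Among textbook MYC-induced genes, falls outnumbered rises where MYC was highest. Of 24 listed genes 17 are on the panel and 16 could be tested in HCT116. After siCARLo-1 v3, where MYC was highest, 2 rose and 8 fell, against 16.9% and 24.2% of all tested genes. CCNA2 fell by -1.22 ± 0.14 (edgeR adjusted p = 3.2e-06) and CCNB1 by -0.73 ± 0.12 (adjusted p = 9.2e-05). Both are also among the genes named above for the sign-turned pattern of MYC in these same libraries. SKP2 fell by -0.64 ± 0.095 (adjusted p = 3.5e-05) and the replication helicase gene MCM4 by -0.57 ± 0.11 (adjusted p = 3.4e-04). E2F3 (0.55 ± 0.13, adjusted p = 0.0027), an S-phase transcription factor, and CCNE1 (0.54 ± 0.12, adjusted p = 0.0017), which encodes cyclin E1, were the 2 that rose. Without siCARLo-1 v3 replicate 3 the count was 6 higher and 6 lower, with the positive controls 0 and 8, and with the reference genes 2 and 3. All 178 genes gave 10 and 47 with the positive controls and 34 and 17 with the reference genes.

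After siCARLo-4, where MYC was lowest, 3 of the 16 rose and 3 fell (18% and 17.4% of all genes). E2F2 (0.90 ± 0.24, edgeR adjusted p = 0.0064), E2F1 (0.48 ± 0.14, adjusted p = 0.014) and E2F3 (0.40 ± 0.13, adjusted p = 0.021) were the higher ones, all transcription factors of S-phase entry. TFDP1 (-0.50 ± 0.11, adjusted p = 0.0022), which encodes their partner DP1, MCM6 (-0.45 ± 0.088, adjusted p = 7.2e-04) and MCM4 (-0.41 ± 0.11, adjusted p = 0.0051) were the lower ones. The list had a median change of -0.28 after siCARLo-1 v3, beside 0.02 for all genes, and after siCARLo-4 both medians were within 0.01 of 0. Without siCARLo-4 replicate 2 the count was 1 and 3, and positive control scaling gave 1 and 3 as well. Over all 178 genes that scaling gave 13 and 40.

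In the other HCT116 groups this list gave 1 rise and 9 falls after siCARLo-3, 1 and 5 after siCARLo-5, and 2 and 5 after siCARLo-7 v2. The shares of all genes were 25.3% and 27.0%, 25.3% and 29.8%, and 20.8% and 16.3%. The falls after siCARLo-5, 5 of 16 genes, were thus near the share of all genes. SKP2 fell in all 3 groups, by -1.35 ± 0.11 (edgeR adjusted p = 1.9e-08), -0.27 ± 0.091 (adjusted p = 0.018) and -0.90 ± 0.097 (adjusted p = 7.9e-07). It encodes the F-box protein that marks the inhibitor p27 for degradation. E2F1 had the largest fall after siCARLo-3 (-1.78 ± 0.21, adjusted p = 1.3e-06), and PCNA, the sliding clamp of replication, the largest rise after siCARLo-7 v2 (1.06 ± 0.20, adjusted p = 3.7e-04). Leaving out 1 library gave 1 to 2 rises and 7 to 9 falls, 0 to 3 and 4 to 8, and 1 to 2 and 3 to 6. The most falls for siCARLo-5 came without siCARLo-1 v3 replicate 3, a library outside that comparison that shares its fit, and the fewest for siCARLo-7 v2 without control replicate 1 or 2 or siCARLo-7 v2 replicate 1 or 2. With the positive controls the counts were 0 and 14, 0 and 8, and 1 and 3, and with the reference genes 1 and 9, 0 and 5, and 1 and 1. All 178 genes gave 11 and 118, 8 and 82, and 23 and 25 with the positive controls. With the reference genes they gave 27 and 59, 28 and 61, and 31 and 13.

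In PC3, where MYC was higher on the TMM scale, 11 of the 17 MYC-induced genes fell and 2 rose, against 35.8% and 40.2% of all tested genes. CCNB1 (-2.58 ± 0.095, limma adjusted p = 2.0e-06), E2F2 (-2.18 ± 0.42, adjusted p = 0.0032), CCNA2 (-2.03 ± 0.046, adjusted p = 5.6e-07) and MCM6 (-1.82 ± 0.13, adjusted p = 2.7e-05) fell most. E2F2 averaged 8.14 normalised values after siCARLo-1 v2&4, close to background. The list's median was -0.99, beside 0.08 for all genes. Positive control scaling gave 0 rises and 16 falls, the reference genes 3 and 11. Over all 179 genes these scalings gave 11 and 131, and 92 and 43.

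Genes that MYC is known to repress mostly rose where they passed the test, whether MYC was higher or lower. Of 10 listed genes 7 are on the panel. After siCARLo-1 v3 4 rose and 0 fell, after siCARLo-3 3 and 0, after siCARLo-4 2 and 0, after siCARLo-5 3 and 1, after siCARLo-7 v2 4 and 0, and in PC3 6 and 0 of the 6 tested. Of all tested genes 16.9%, 25.3%, 18%, 25.3%, 20.8% and 40.2% rose in these comparisons. The p21 gene CDKN1A, a brake on cyclin-dependent kinases, was higher in all 6 comparisons. It went from 301 normalised counts in the HCT116 control to 1546 after siCARLo-1 v3 (2.36 ± 0.075, edgeR adjusted p = 1.2e-14) and to 707 after siCARLo-4 (1.23 ± 0.074, adjusted p = 6.7e-10), the groups of highest and lowest MYC.

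CDKN2B, the gene of the inhibitor p15, rose by 0.75 ± 0.27 after siCARLo-1 v3 (edgeR adjusted p = 0.030) and by 0.74 ± 0.26 after siCARLo-4 (adjusted p = 0.030). The stress gene GADD45A rose by 0.53 ± 0.078 after siCARLo-1 v3 (adjusted p = 3.5e-05) and stood at -0.07 ± 0.078 after siCARLo-4 (adjusted p = 0.49). CDKN2C had 5.80 to 12.1 normalised counts per group, near background, and its rise after siCARLo-5 (0.90 ± 0.31, adjusted p = 0.029) rests on these. In PC3, CDKN1A rose by 2.60 ± 0.079 (limma adjusted p = 1.0e-06) and GADD45A by 2.49 ± 0.064 (adjusted p = 5.6e-07). Positive control scaling called 10 genes of the panel higher and 47 lower after siCARLo-1 v3. In the order above, the other comparisons gave 11 and 118, 13 and 40, 8 and 82, 23 and 25, and 11 and 131. For the list the counts were 2 higher and 0 lower for siCARLo-1 v3, 2 and 2 for siCARLo-3, 2 and 0 for siCARLo-4, 1 and 3 for siCARLo-5, 4 and 0 for siCARLo-7 v2, and 2 and 1 for PC3. The siCARLo-4 count fell to 1 when either of control replicates 1 and 3, or any single library of siCARLo-4, was left out, the siCARLo-7 v2 count became 3 and 1 without its replicate 2, and the fall after siCARLo-5, of CDKN1B (-0.40 ± 0.15, edgeR adjusted p = 0.028), was lost without control replicate 1 or 3 or siCARLo-5 replicate 1 or 2.

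**Figure D4:**
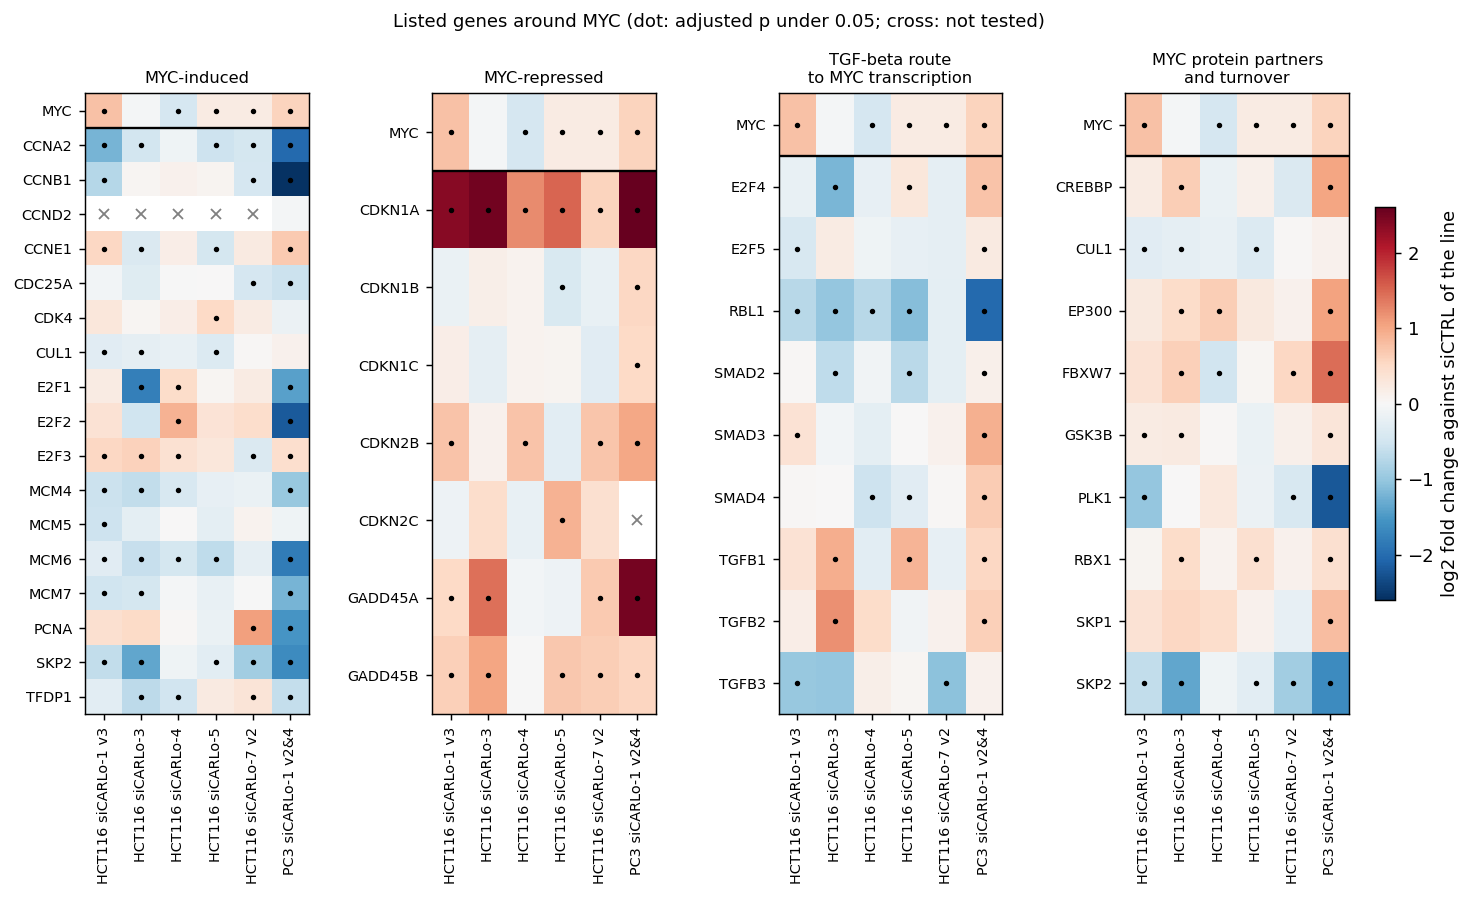
Log2 fold changes against the control siRNA of the line for MYC (top row of each panel) and the listed genes around it, in 6 comparisons, with dots where the adjusted p is under 0.05. CDKN1A is higher in all 6 columns whether MYC is higher, level or lower, and SKP2 is called lower in the 5 columns other than siCARLo-4.

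Upstream of MYC, TGF-beta signalling is known to shut off its transcription through SMAD3, SMAD4, E2F4, E2F5 and the pocket protein p107 (RBL1). All 9 genes of that route that were listed are on the panel. RBL1 fell in 4 of the 5 HCT116 groups, among them siCARLo-1 v3 (-0.72 ± 0.18, edgeR adjusted p = 0.0040) and siCARLo-4 (-0.73 ± 0.18, adjusted p = 0.0035), and in PC3 (-2.03 ± 0.066, limma adjusted p = 1.3e-06). Counts of rises and falls were 1 and 3 after siCARLo-1 v3, 2 and 3 after siCARLo-3, 0 and 2 after siCARLo-4, 2 and 3 after siCARLo-5, 0 and 1 after siCARLo-7 v2, and 7 and 1 in PC3. Of all tested genes 16.9% to 25.3% rose and 16.3% to 29.8% fell in the HCT116 comparisons, and 40.2% and 35.8% in PC3. In PC3 SMAD3 rose by 0.92 ± 0.066 (adjusted p = 3.0e-05), E2F4 by 0.75 ± 0.078 (adjusted p = 1.6e-04) and SMAD4 by 0.66 ± 0.073 (adjusted p = 2.1e-04), but with the positive controls 0 genes of the route rose there and 4 fell. Of all 179 genes tested in PC3, 11 rose and 131 fell on that scaling. After siCARLo-3 E2F4 fell by -1.19 ± 0.12 (edgeR adjusted p = 1.6e-07) and the ligand gene TGFB2 rose by 1.19 ± 0.28 (adjusted p = 0.0016), from 11.8 to 27.8 normalised counts. The HCT116 panel counts with the positive controls were 10 and 47, 11 and 118, 13 and 40, 8 and 82, and 23 and 25. Those of the route were 0 and 3, 0 and 7, 0 and 2, 1 and 4, and 0 and 1. Over the 18 libraries left out in turn, the siCARLo-1 v3 count ran over 0 to 2 rises and 1 to 3 falls, and the siCARLo-7 v2 count over 0 rises and 0 to 2 falls. The first moved without any 1 control or without siCARLo-1 v3 replicate 1 or 2, and the single fall after siCARLo-7 v2, of TGFB3 at 7.34 normalised counts, was lost without control replicate 1 or 2 or any 1 of its own libraries. For siCARLo-5 the count was 1 and 3 without control replicate 1 and 1 and 2 without control replicate 3. In PC3, leaving out any 1 of the 6 libraries gave 5 to 6 rises and 1 fall.

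Of 21 listed partners and turnover factors of the MYC protein 9 are on the panel, with no probe for MAX. Rises and falls numbered 1 and 3 after siCARLo-1 v3, 5 and 2 after siCARLo-3, 1 and 1 after siCARLo-4, 1 and 2 after siCARLo-5, 1 and 2 after siCARLo-7 v2, and 6 and 2 in PC3, beside the shares of all genes just given. FBXW7, the F-box protein that targets MYC for degradation, fell after siCARLo-4 (-0.49 ± 0.16, edgeR adjusted p = 0.020) and rose after siCARLo-3 (0.63 ± 0.16, adjusted p = 0.0031), siCARLo-7 v2 (0.55 ± 0.15, adjusted p = 0.0079) and in PC3 (1.46 ± 0.14, limma adjusted p = 1.2e-04). The acetyltransferase gene EP300 rose after siCARLo-3 (0.47 ± 0.16, edgeR adjusted p = 0.022), siCARLo-4 (0.64 ± 0.15, adjusted p = 0.0026) and in PC3 (1.04 ± 0.067, limma adjusted p = 2.0e-05). The fall of FBXW7 after siCARLo-4 was lost when control replicate 3 was left out, and likewise for replicates 1 and 3 of siCARLo-4. Single libraries moved the siCARLo-3 count over 3 to 6 rises and 1 to 2 falls, and the siCARLo-4 count over 1 to 3 and 0 to 2, the latter highest without siCARLo-1 v3 replicate 3. The fewest calls for siCARLo-3, 3 and 1, came without its replicate 2, and the siCARLo-1 v3 rise, of GSK3B, was lost without control replicate 1 or 2. In siCARLo-5 and siCARLo-7 v2 the falls ran over 1 to 3 and 1 to 2. With the positive controls the counts were 0 and 3, 0 and 4, 1 and 1, 0 and 4, 0 and 1, and, in PC3, 1 and 5. The panel then gave 10 and 47, 11 and 118, 13 and 40, 8 and 82, 23 and 25, and, in PC3, 11 and 131.

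Early growth-response genes were represented by JUN and CCND1, 2 of 7 listed, and both rose in all 6 comparisons on the TMM scale, in which 16.9% to 40.2% of all tested genes rose. CCND1, the cyclin D1 gene, rose by 1.01 ± 0.055 after siCARLo-1 v3 (edgeR adjusted p = 5.8e-11) and by 0.69 ± 0.055 after siCARLo-4 (adjusted p = 1.7e-08). JUN rose by 0.85 ± 0.24 (adjusted p = 0.0075) and by 1.73 ± 0.21 (adjusted p = 1.0e-05). MYC, itself a gene of this class, thus moved apart from both after siCARLo-4. With the positive controls 1 of the 2 rose after siCARLo-1 v3 and siCARLo-5 and 0 in PC3, and the siCARLo-5 count was 1 without control replicate 1 or 2 or siCARLo-5 replicate 2 or 3. Positive control scaling called 10, 8 and 11 genes of the panel higher for siCARLo-1 v3, siCARLo-5 and PC3.

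The 5 other panel genes of chromosome 8, CCNE2, E2F5, MCM4, PRKDC and YWHAZ, gave 1 rise and 2 falls after each of siCARLo-4, siCARLo-3 and siCARLo-1 v3, 1 and 1 after siCARLo-5 and siCARLo-7 v2, and 2 and 2 in PC3. Of all tested genes 35.4% to 55.1% were called in either direction in HCT116 and 76.0% in PC3. Where MYC rose most, the cyclin E2 gene CCNE2 also rose (0.65 ± 0.17, edgeR adjusted p = 0.0041) and MCM4 and E2F5 fell. Where MYC fell, CCNE2 fell (-0.52 ± 0.17, adjusted p = 0.024), as did MCM4, and the 14-3-3 zeta gene YWHAZ rose (0.33 ± 0.073, adjusted p = 0.0022). Positive control scaling called 13 genes of the panel higher and 40 lower after siCARLo-4, and 11 and 118 after siCARLo-3. It gave 10 and 47 after siCARLo-1 v3, 8 and 82 after siCARLo-5, 23 and 25 after siCARLo-7 v2, and 11 and 131 in PC3. For these 5 genes the same comparisons gave 0 rises and 2 falls, 0 and 5, 0 and 3, 0 and 4, 1 and 1, and 0 and 5. Leaving out 1 library gave 1 to 3 falls after siCARLo-1 v3, 1 to 2 after siCARLo-4 and siCARLo-5, and 1 to 2 rises in PC3, where each library but siCARLo-1 v2&4 replicate 3 took the count to 1.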

How the data were processed

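Transcripts of 189 endogenous genes with 6 positive and 8 negative control probes were counted in 24 libraries. For 7 groups the deposited tables hold raw counts, as tested on the values. For PC3 siCARLo-1 v2&4, and in the series-wide table, the deposited values are a score scaled by the authors on the positive controls, seen from equal positive control sums. How the images were read is not stated in the labels or headers, and 0 columns belonged to no library.

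A gene was tested if it exceeded background (mean plus 2 SD of the negative probes) in at least 3 libraries. HCT116 used the edgeR quasi-likelihood test on counts of all 18 libraries with TMM (common dispersion 0.00828, a replicate CV of 9.10%). PC3 and the 24-library fits used limma on log2(TMM-scaled value + 1), since 1 group has no counts. P-values were adjusted over all genes tested, and 0.05 was the threshold. By accession, 178 of the 189 probes matched RefSeq, MYC among them. Both tests were tested on simulated data.

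Replicate numbers were not used to pair the samples. Same-numbered HCT116 samples had a median correlation of -0.05 in their deviations (-0.41 to 0.31), and differently numbered ones 0.006. In PC3 these medians were 0.096 and -0.044. Such values cannot show whether same-numbered samples were handled together. MYC and the gene lists were chosen with earlier results of these data known. Named list genes are those called in a comparison with the control, up to 4 per list and comparison by size, and members of counts of 5 or fewer were named after their values were seen. Genes like MYC needed a mean of 50 normalised counts. Alternatives were other scalings, DESeq2, limma, no filter, the replicate block and leaving out each library, and the geometric mean of the positive controls was added after seeing the data. Counting intervals cover counting error only. The fits ran in R 4.3.3 with DESeq2 1.42.0, limma 3.58.1 and edgeR 4.0.16, and figures in matplotlib 3.10.9.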

Additional observations from a re-analysis of the deposited data

Results flagged for a closer look

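On the TMM scale, the change of MYC after siRNA against CARLo-1 differed between the lines by 0.30 in log2 units (v3 in HCT116 minus v2&4 in PC3, limma interaction term over 24 libraries, adjusted p = 0.0059), with changes of 0.78 ± 0.060 and 0.48 ± 0.060. On that scale MYC was higher than every control of its line in 3 of 3 libraries of each treated group. With the sum of the positive controls the difference was 0.88 and the PC3 change -0.29. In the authors' series-wide table, where each control lies at another scaling level than its treated group, they were 1.62 and -0.59. The difference was 0.08 (adjusted p = 0.68) with the reference genes and 0.20 (adjusted p = 0.14) without HCT116 siCTRL replicate 2. Variant, dose and line cannot be told apart. Groups of 3 libraries were not tested for single outlying samples.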

How the results depend on the processing

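Over 19 MYC results and 530 alternative values, 498 kept direction and side of the threshold, 14 lost the call, 2 gained it and 16 changed sign. The siCARLo-1 v3 rise, the siCARLo-3 and siCARLo-5 differences from siCARLo-1 v3 and the F test kept their direction and call under each of the alternatives run. The siCARLo-4 difference from siCARLo-1 v3 kept both under all scalings, as given above, and with each of 18 libraries left out. Scaling on the positive control sum gave -0.67 for siCARLo-3, -0.20 for siCARLo-5, 0.14 for siCARLo-7 v2, 0.056 for siCARLo-4 against siCARLo-3, 0.34 for siCARLo-7 v2 against siCARLo-5 and -0.29 for PC3. Their geometric mean, added after seeing the data, gave -0.44, -0.063, 0.34, -0.16, 0.40 and -0.37 for the same results and -0.32 for PC3 against HCT116 controls. Reference genes gave 0.065 for siCARLo-5, 0.27 for siCARLo-7 v2, -0.22 for siCARLo-4 against siCARLo-3, 0.21 for siCARLo-7 v2 against siCARLo-5 and 0.076 for the difference between lines, and the endogenous total 0.13 for siCARLo-5 and 0.15 for siCARLo-7 v2 against siCARLo-5. DESeq2 gave 0.16 for siCARLo-7 v2. The authors' series-wide table, whose positive control sums lie at 4 levels, gave -0.18 for siCARLo-4, -0.059 for siCARLo-7 v2 against siCARLo-1 v3, 0.050 for siCARLo-4 against siCARLo-3, 0.34 for siCARLo-7 v2 against siCARLo-5, -0.59 for PC3 and 0.41 for PC3 against HCT116 controls. Leaving out 1 library moved siCARLo-7 v2 over 0.16 to 0.23, siCARLo-7 v2 against siCARLo-5 over -0.040 to 0.019, and the difference between lines over 0.20 to 0.32 (lowest, and not called, without HCT116 siCTRL replicate 2), with the siCARLo-7 v2 call lost without siCTRL replicate 3. Leaving out siCTRL replicate 2, siCARLo-5 replicate 1 or siCARLo-7 v2 replicate 3 turned the sign of siCARLo-7 v2 against siCARLo-5, to 5.3e-04, 0.019 and 0.0094. The replicate block gave 0.77 for siCARLo-1 v3 and changed no MYC call, and counting siCTRL replicates 1 and 2 as 1 library gave 0.81. The cause was not tested beyond the panel medians given above. The difference between lines was 0.88 with the positive control sum, 1.08 with their geometric mean and 1.62 in the series-wide table. Counting error of MYC was at most 3.87% in the 21 libraries with raw counts.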
